A study of Mus musculus and Homo sapiens with 14 samples.

Results

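The mitochondrial respiratory chain is built from genes of 2 genomes, and the expression of these genes was followed in 5 cultures of 2 mouse cell lines. Members were chosen by symbol: the Nduf genes of complex I, Sdha to Sdhd of complex II, the Uqcr genes of complex III, Cox4 to Cox8 of complex IV, the Atp5 genes of ATP synthase (complex V) and the mt-Nd, mt-Cytb, mt-Co and mt-Atp genes of mitochondrial DNA. Of 35288 gene identifiers in each mouse table, 98 were members, and 11 pseudogenes whose symbols matched were left out. The 85 nuclear identifiers comprised 37 of complex I, 4 of complex II, 8 of complex III, 18 of complex IV and 18 of complex V, with Atp5o listed under 2 identifiers. The 13 mitochondrially encoded genes comprised 7 of complex I, 1 of complex III, 3 of complex IV and 2 of complex V. Ndufa4 was counted with complex I by its symbol, although its protein is a subunit of complex IV.

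Oli-neu cells are an immortal mouse model of oligodendrocyte precursors. MB1 cells were established from Sonic hedgehog medulloblastomas of Atoh1-cre:SmoM2 mice at postnatal day 12, in which Cre driven by Atoh1 switches on an active form of Smoothened in cerebellar granule neuron precursors. All cells grew in serum-free DMEM/F-12 with B-27, N-2, EGF and bFGF at 20 ng/mL each, and penicillin and streptomycin, so the controls carried these factors too. The 10 libraries were Oli-neu alone, Oli-neu with MB1, Oli-neu with the human Group 3 medulloblastoma line D341, MB1 alone and MB1 with Oli-neu, 2 of each. Co-cultured lines were separated by a 30 mm insert with pores of 0.4 µm. The labels call the 2 libraries of a culture biological replicates. Nothing more is said of their origin, so that the p values measure only the spread between these libraries, which may be partly technical.

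Complex I passes electrons from NADH, and complex II from succinate, to ubiquinone; complex III passes them on to cytochrome c and complex IV to oxygen. Complexes I, III and IV pump protons, and ATP synthase uses the gradient to make ATP. The mitochondrially encoded subunits form the membrane cores of these complexes, while all of complex II and most subunits of the others are made from nuclear genes and imported. In mouse mitochondrial DNA, mt-Nd6 is read from the opposite strand to the other 12, and mt-Atp8 with mt-Atp6, like mt-Nd4l with mt-Nd4, are carried as overlapping reading frames on a shared mRNA.

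Expression is given as TPM, a share of transcripts that corrects for their length and sums to 1000000 in each library. Without read counts the depth of sequencing is unknown, and no counting interval can be given. Between 11596 and 12338 genes reached 1 TPM. Genes annotated as pseudogenes held between 25.2% and 38.2% of all TPM. Of the markers fixed for the lines, Sox10 was at 171 TPM or more in Oli-neu and below 0.9 TPM in MB1, and Zic1 at 63.7 TPM or more in MB1 and at most 0.03 TPM in Oli-neu. Of the other granule lineage and hedgehog markers, Ptch1 (14.2 to 18.4 TPM) and Zic2 (22.6 to 30.3 TPM) were higher in all MB1 libraries than in Oli-neu, while Atoh1, Gli1, Gli2 and Sfrp1 were below 0.5 TPM in MB1 and Neurod1 was at 0.781 to 1.32 TPM. In MB1 Olig1 and Olig2 were higher than in Oli-neu, and the astrocyte gene Slc1a3 was at 324 TPM or more. Markers of microglia summed to 0.69 TPM or less in every library.

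Several members have near-identical copies elsewhere in the genome, to which reads may have been assigned, and the 2 pairs below are shown because the copy held more TPM than the gene. Cox7c encodes a small subunit of complex IV on chromosome 13 (GRCm38, chr13:86044816-86046904, minus strand). Its coding sequence was compared with Gm12338, a processed pseudogene at chr11:75599763-75599954 on the minus strand. All 192 bases were identical, so that no base is in capitals.
Cox7c: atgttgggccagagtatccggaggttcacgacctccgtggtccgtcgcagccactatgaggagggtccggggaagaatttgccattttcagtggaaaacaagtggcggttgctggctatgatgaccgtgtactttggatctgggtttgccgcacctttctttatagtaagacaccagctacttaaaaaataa
Gm12338: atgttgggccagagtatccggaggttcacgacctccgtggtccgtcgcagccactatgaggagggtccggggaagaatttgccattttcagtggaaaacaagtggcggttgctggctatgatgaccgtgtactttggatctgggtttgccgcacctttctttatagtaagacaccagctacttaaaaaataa

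Cox6c, another small complex IV subunit (chr15:35925886-35938246, minus strand), was compared in the same way with Cox6c2 (chr12:56373593-56373823, minus strand). The 7 mismatches in 231 bases, which leave 97% identity, are in capitals in both.
Cox6c: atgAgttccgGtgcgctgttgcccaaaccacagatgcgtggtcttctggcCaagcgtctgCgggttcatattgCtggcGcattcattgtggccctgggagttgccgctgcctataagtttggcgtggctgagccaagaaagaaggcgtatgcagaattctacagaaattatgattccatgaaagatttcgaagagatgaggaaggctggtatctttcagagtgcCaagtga
Cox6c2: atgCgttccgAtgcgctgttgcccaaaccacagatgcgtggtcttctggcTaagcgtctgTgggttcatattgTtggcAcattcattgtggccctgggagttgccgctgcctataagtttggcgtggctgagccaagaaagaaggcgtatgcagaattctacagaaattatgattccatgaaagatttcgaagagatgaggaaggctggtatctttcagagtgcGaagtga

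Over the 10 libraries Gm12338 held 7358 to 14386 TPM, while Cox7c held 518 to 1409 TPM. Cox6c2 held 1248 to 2335 TPM and Cox6c 431 to 578 TPM. Copies with at least 95% identity were found for 21 nuclear and 9 mitochondrially encoded members, and their summed mean exceeded that of the member for 8 and 2 of these. Among them was Ndufb4, a complex I subunit at 36.0 TPM on average, whose copies held 444 TPM, with 252 to 382 TPM in the identical Ndufb4c. The copies of mt-Co1, the catalytic subunit of complex IV, held 7140 TPM on average against 4813 TPM for the gene. How reads were divided between gene and copy is unknown here, so the levels of these members are uncertain, and the sums below are also given with copies added.

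Promoters are shown because nuclear respiratory genes are textbook targets of the factors NRF1 and GABP, an ETS protein, and of YY1. RefSeq promoters (GRCm38.p6, 250 bases before to 50 after a start) were matched for 66 of the 84 nuclear symbols. The letters CGCANGCG (NRF1), CCGGAAG (ETS) and AAGATGGCG (YY1), which do not overlap one another in the examples, were searched on both strands. The NRF1 letters were in 25 of 66 members (37.9%) and in 9.22% of all 27025 genes with a promoter. The ETS letters were in 16 (24.2%, against 9.93%) and the YY1 letters in 7 (10.6%, against 1.64%), and 39 members (59.1%) held at least 1 of the motifs, against 18.3% of all genes. The 27025 genes include many that were not expressed here, and no share was computed over expressed genes alone. Whether the excess is particular to respiratory chain genes was therefore not tested. A match is a description of sequence, not of binding. The 160 bases before the start of Atp5j, coupling factor 6 of ATP synthase (chr16:84834977-84835136, minus strand), hold all 3 motifs; this is 1 of 2 promoters listed for the gene, shown for its matches, and the other held 0. The first bases of the matches lie at -147 (NRF1), -88 (YY1) and -61 (ETS). The same stretch of Sdha, the flavoprotein of complex II (chr13:74350241-74350400, minus strand), holds the NRF1 letters at -97, -54 and -9. The matches are in capitals.
Atp5j promoter: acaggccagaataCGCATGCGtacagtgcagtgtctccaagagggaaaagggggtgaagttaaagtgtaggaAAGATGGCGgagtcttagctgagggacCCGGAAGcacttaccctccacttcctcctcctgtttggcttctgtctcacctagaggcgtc
Sdha promoter: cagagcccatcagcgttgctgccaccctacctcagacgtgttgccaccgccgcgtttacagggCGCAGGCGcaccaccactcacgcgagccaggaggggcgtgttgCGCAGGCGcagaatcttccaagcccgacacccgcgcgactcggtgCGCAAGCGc

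The mitochondrial genome gave a large share of the respiratory chain transcripts in all cultures. The 13 mitochondrially encoded genes summed to 19333 and 40017 TPM in Oli-neu alone, 32844 and 45344 TPM with MB1 and 33995 and 40291 TPM with D341. In MB1 they summed to 95591 and 57341 TPM alone and 87883 and 81938 TPM with Oli-neu. All 4 MB1 libraries lay above all 6 Oli-neu libraries, and replicates differed most in Oli-neu alone and MB1 alone. In these bulk samples more cells of a kind and more RNA per cell cannot be told apart.

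The 85 nuclear members summed to 26185 and 25194 TPM in Oli-neu alone, 22453 and 24275 TPM with MB1 and 23080 and 23773 TPM with D341. In MB1 their sums were 30799 and 37418 TPM alone and 37056 and 33865 TPM with Oli-neu. In Oli-neu alone and MB1 alone the 2 nuclear sums were closer to each other than the 2 mitochondrial ones. With copies added the nuclear sums were between 33886 and 38308 TPM in Oli-neu and between 44977 and 56988 TPM in MB1, and the mitochondrial sums between 23648 and 54200 TPM and between 62753 and 105135 TPM.

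**Figure D1:**
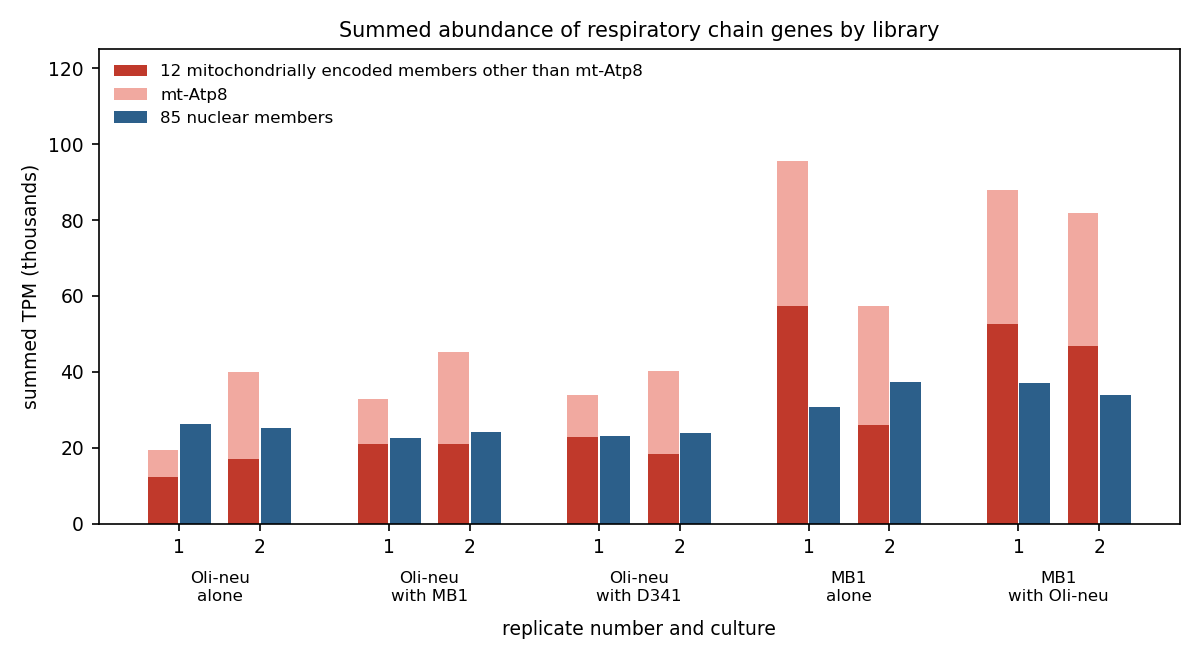
Bars give summed TPM (axis units of 1000 TPM) for each of the 10 libraries, named by culture and replicate number. Red bars stand for the 13 mitochondrially encoded members, with mt-Atp8 as the pale upper part, and blue bars for the 85 nuclear members. The mitochondrial bar was lower than the nuclear one in Oli-neu alone replicate 1 only.

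The shortest mitochondrial reading frame, mt-Atp8, a subunit of ATP synthase, gave between 33.1% and 57.2% of the mitochondrial sum. It was at 7146 and 22875 TPM in Oli-neu alone, 11732 and 24326 TPM with MB1 and 11236 and 21968 TPM with D341. It was at 38240 and 31440 TPM in MB1 alone and 35283 and 35158 TPM in MB1 with Oli-neu. The log2 ratio of the mitochondrial to the nuclear sum was -0.44 and 0.67 in Oli-neu alone, 0.55 and 0.90 with MB1, 0.56 and 0.76 with D341, 1.63 and 0.62 in MB1 alone and 1.25 and 1.27 in MB1 with Oli-neu. Without mt-Atp8 it was -1.10 and -0.56, -0.09 and -0.21, -0.02 and -0.38, 0.90 and -0.53, and 0.51 and 0.47 in the same order.

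Within a genome, levels per length spanned a wide range. Of the nuclear members, 66 were at 100 TPM or more on average over the 10 libraries and 21 at 500 TPM or more. In complex I the highest were the accessory subunits Ndufa6 (844 TPM on average, 255 to 1453) and Ndufa10 (771 TPM, 592 to 955), and the lowest tested was Ndufb4. In complex II the flavoprotein Sdha (445 TPM, 180 to 769) and the membrane anchor Sdhc (380 TPM, 210 to 630) were above the other anchor Sdhd (80.3 TPM, 49.8 to 144). In complex III the small subunits Uqcrq (720 TPM, 565 to 812) and Uqcrh (709 TPM, 599 to 853) were above the Rieske iron-sulphur protein Uqcrfs1 (84.0 TPM, 47.3 to 152).

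In complex IV, Cox6b1 (1593 TPM, 1183 to 2149) and Cox7b (998 TPM, 257 to 2892) were highest. In complex V the catalytic beta subunit Atp5b (1382 TPM, 732 to 2542) and Atp5j (1195 TPM, 513 to 2148) were highest, and the second identifier of Atp5o (ENSMUSG00000116933, 10.95 TPM, 1.33 to 32.5) was lowest, against 419 TPM for the first. Atp5o encodes the subunit that joins the catalytic head to the stalk. The subunits of a complex did not share a transcript level: Uqcrfs1 and Uqcrq, present in equal number in complex III, were far apart in every Oli-neu library.

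Tissue-restricted isoforms were low except for 2. The ubiquitous isoforms Cox4i1 (801 TPM on average), Cox6a1 (528 TPM), Cox7a2 (477 TPM) and Cox8a (790 TPM) far exceeded their counterparts. The muscle-type isoforms Cox6a2 and Cox7a1 were at 0.943 to 3.21 TPM and 2.00 to 4.02 TPM. Cox4i2, Cox7b2, Cox8c and Ndufa4l2 were under 1 TPM in all 10 libraries. Cox8b, the heart and muscle isoform, was between 1.17 and 2.08 TPM in Oli-neu and between 22.2 and 37.7 TPM in MB1. The muscle genes Myh7, Ckm and Actn2 summed to between 0.01 and 0.37 TPM in Oli-neu and between 2.41 and 3.02 TPM in MB1.

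Cox6b2, known as the testis isoform of Cox6b1, was between 0.144 and 0.745 TPM in the 6 Oli-neu libraries. It was at 61.9 and 73.7 TPM in MB1 alone and at 150 and 146 TPM in MB1 with Oli-neu. Of the 3 genes for the c subunit of the ATP synthase rotor, Atp5g3 was the highest on average (495 TPM), above Atp5g2 (168 TPM) and Atp5g1 (116 TPM). The copy Gm10175 of Atp5g2 held 211 to 530 TPM, and Gm10039 of Atp5g1 held 119 to 177 TPM, so the levels of these 2 are uncertain.

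**Figure D2:**
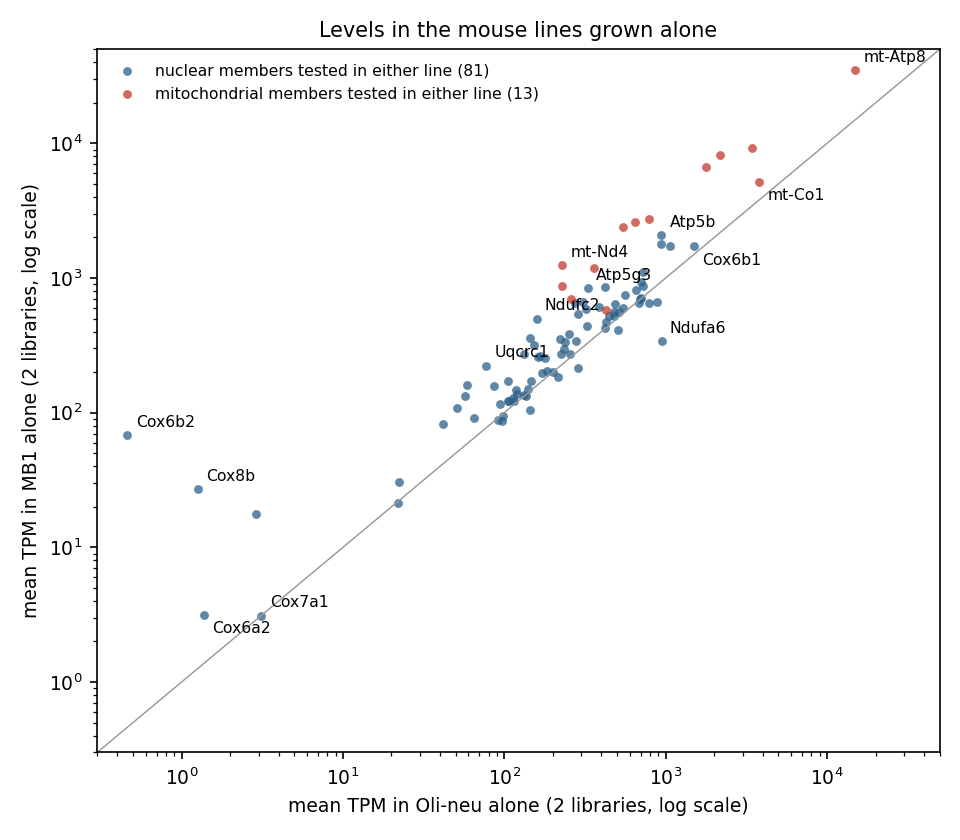
Each point is a member tested in either line, with its mean TPM in Oli-neu alone on the x axis and in MB1 alone on the y axis, both on log scales over 2 libraries each; the line marks equal levels. Most points lie above the line, the mitochondrially encoded ones (red) the more so, and Cox6b2 and Cox8b stand at the left.

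The 2 lines were set side by side without a test, because their tables are separate. In 40 of 81 nuclear members that reached 1 TPM in 2 libraries of a table, all 4 MB1 libraries lay above all 6 Oli-neu libraries, and in 3 below, while 38.6% of all 13505 such genes lay above and 14.1% below. The median log2 difference was 0.45, against 0.31 for all genes. By complex, 16 of 36 lay above in I, 3 of 4 in II, 6 of 8 in III, 5 of 15 in IV and 10 of 18 in V. Of the mitochondrially encoded genes 7 of 13 lay above, with a median of 1.501.

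Among nuclear core subunits of complex I, which carry its flavin and iron-sulphur clusters or build its quinone site, Ndufs1, Ndufs3 and Ndufv2 were higher in all MB1 libraries. Ndufs1 was at 33.5 to 42.5 TPM in Oli-neu and 66.8 to 83.6 TPM in MB1. The ranges of Ndufs7, Ndufs8 and Ndufv1 overlapped. In complex V the catalytic subunits Atp5a1 (193 to 284 TPM in Oli-neu, 473 to 710 TPM in MB1) and Atp5b (732 to 1010 TPM, 1991 to 2542 TPM), and the rotor gene Atp5g3 (230 to 334 TPM, 760 to 912 TPM), were higher in all MB1 libraries.

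In complex III the core protein Uqcrc1 (56.2 to 78.4 TPM in Oli-neu, 211 to 236 TPM in MB1) and in complex IV Cox5a (91.6 to 156 TPM, 338 to 479 TPM) were likewise higher. The 3 members that lay below were Ndufa6 (867 to 1453 TPM in Oli-neu, 255 to 594 TPM in MB1), Ndufv3 (255 to 359 TPM, 175 to 254 TPM) and Atp5h (728 to 949 TPM, 622 to 713 TPM). Ndufa6 and Ndufv3 are accessory subunits of complex I, and Atp5h is subunit d of the stalk.

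Some members separated 4 libraries from the other 6, across both lines. The mRNA of mt-Nd6 was at 38.6 and 815 TPM in Oli-neu alone, 35.8 and 1222 TPM with MB1 and 34.7 and 1026 TPM with D341. It was at 86.8 and 1067 TPM in MB1 alone and at 108 and 40.4 TPM in MB1 with Oli-neu. It was thus over 800 TPM in the 3 Oli-neu libraries numbered 2 and in MB1 alone replicate 2, and 108 TPM or less in the other 6.

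The ratio of mt-Atp8 to mt-Atp6, computed after the data were seen, divided the libraries in the same way, although both frames lie on a shared mRNA and overlap by 43 bases. It was 9.87, 9.46, 9.86 and 10.2 in the same 4 libraries, in that order, and between 2.73 and 3.49 in the other 6. The ratio of mt-Nd4l to mt-Nd4, which overlap by 7 bases, was between 2.89 and 4.49 in the 4 and between 1.20 and 2.72 in the 6.

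Among nuclear members Cox7b, a small complex IV subunit on the X chromosome, followed this order most closely. It was at 504 and 1371 TPM in Oli-neu alone, 257 and 1288 TPM with MB1, 278 and 1114 TPM with D341, 682 and 2892 TPM in MB1 alone and 800 and 792 TPM in MB1 with Oli-neu. In Oli-neu, mt-Nd3 and Ndufa12 also differed by number, mt-Nd3 from 69.2 to 175 TPM in the libraries numbered 1 and from 384 to 442 TPM in those numbered 2. The summed TPM of 70 histone cluster genes, chosen after the data were seen, was 764 to 1097 in the 4 libraries and 513 to 691 in the other 6. Over 11182 genes tested in both lines, the mean difference between numbers in Oli-neu correlated with that in MB1 alone (r of 0.56). With that in MB1 with Oli-neu, r was -0.09. Neither the culture nor the labels give the division into 4 and 6 libraries. Its part in the comparisons below was not tested beyond the values within each number and without each library.

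**Figure D3:**
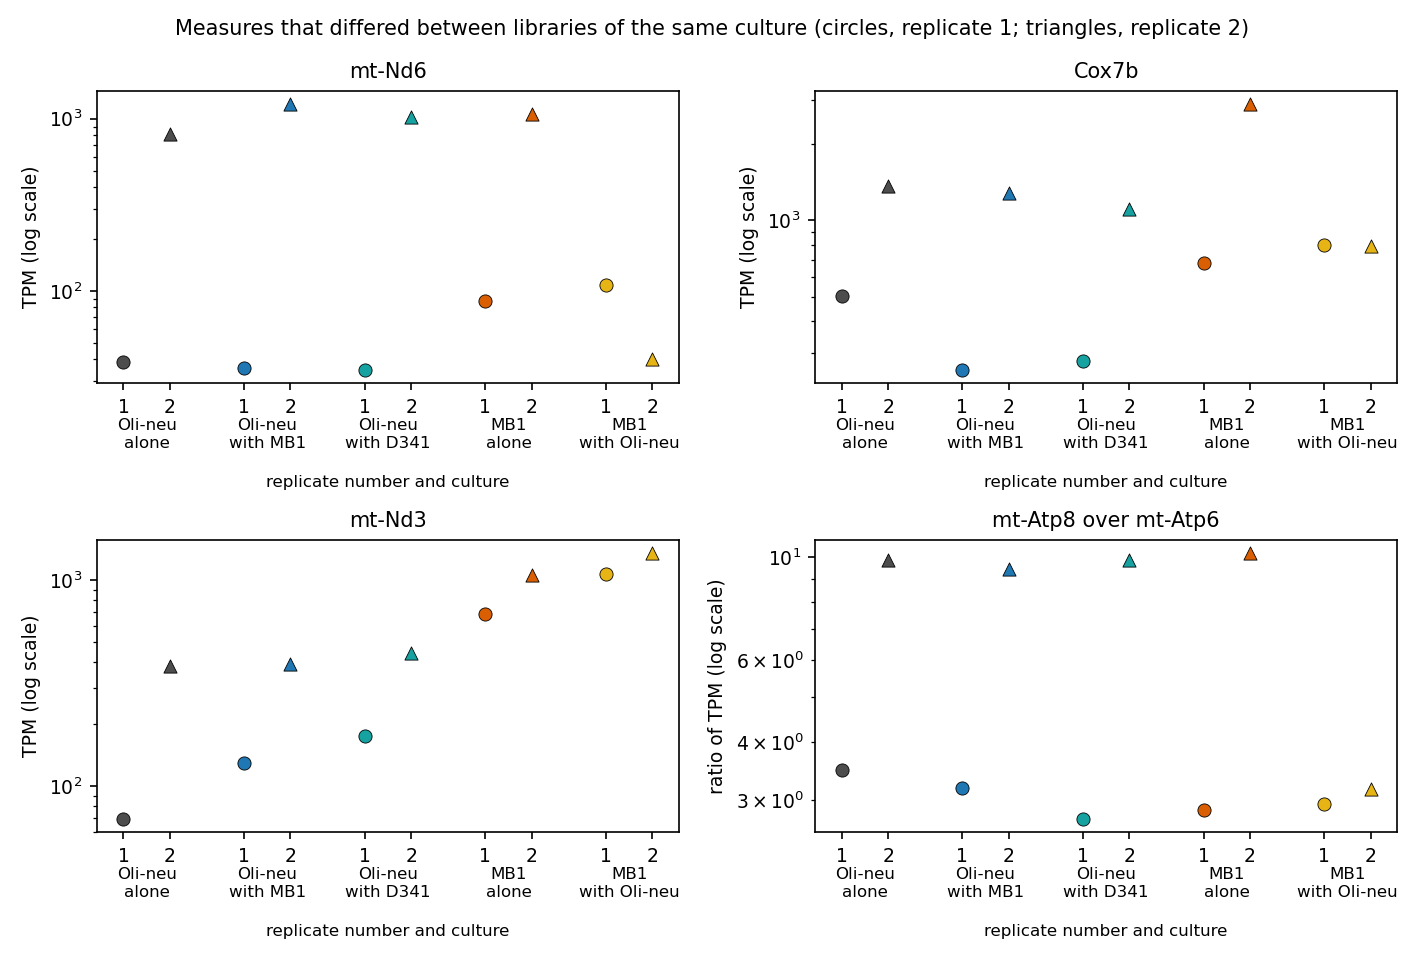
The panels give, for each of the 10 libraries by culture and replicate number, TPM of mt-Nd6, Cox7b and mt-Nd3 and the ratio of mt-Atp8 to mt-Atp6, on log scales; circles are replicate 1 and triangles replicate 2. The mt-Atp8 to mt-Atp6 ratio was between 9.46 and 10.2 in 4 libraries and between 2.73 and 3.49 in the other 6, and MB1 with Oli-neu replicate 2 was on the side of the libraries numbered 1.

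Oli-neu cells with MB1 were compared with Oli-neu alone to ask how the precursor line differs next to the tumour line. The mean of all 13 mitochondrially encoded genes was higher with MB1, by a median log2 fold change of 0.52, where 37.4% of the 12280 genes tested were higher. That of 65 of 80 tested nuclear members was lower (median -0.15), as for 62.6% of all genes, whose median was -0.06. No member and no other gene passed an adjusted p of 0.05 (limma, Benjamini-Hochberg over all genes tested). At an unadjusted p under 0.05 stood 747 genes, 6.08% of those tested, with 3 of 13 mitochondrial and 5 of 80 nuclear members among them. All 3 mitochondrial genes and 1 nuclear member were higher (1.43% of all genes) and 4 nuclear members lower (4.65%). With the replicate number as a block the count over all genes was again 0 at the adjusted threshold and 1305 at the unadjusted p, among them 4 mitochondrial and 11 nuclear members.

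Libraries of the groups did not overlap in 9 of 13 mitochondrial genes, all higher, against 10.1% of genes tested. They did not overlap in 30 nuclear members, 26 lower against 24% of genes and 4 higher. Within number 1 the mitochondrial median was 0.90 and within number 2 it was 0.25, with 12 and 13 of 13 genes higher. Without Oli-neu alone replicate 1 it was 0.38, with 9 of 13 genes higher, and without its replicate 2 it was 0.99 with all 13. The log2 ratio of the mitochondrial to the nuclear sum differed by 0.61, by 0.99 within number 1 and 0.23 within number 2, and by 0.06 without Oli-neu alone replicate 1. Without mt-Atp8 the difference was 0.68, and 0.41 without Oli-neu alone replicate 1. As the median over members it was 0.88, and 0.33 without that library.

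By complex, mitochondrial medians were 0.54 for complex I, 0.65 for mt-Cytb, 0.52 for complex IV and 0.45 for complex V. Nuclear medians were -0.16 for complex I, -0.10 for complex II, -0.13 for complex III, -0.09 for complex IV and -0.22 for complex V. By these medians the 3 proton-pumping complexes and ATP synthase showed the same pair of directions, for complex III with a single mitochondrial gene. Their nuclear medians were also negative within both numbers. Complex II, which has 4 nuclear genes and no mitochondrial one, likewise had a negative nuclear median. Within number 1 it was 0.10 and within number 2 it was -0.22. Median-ratio scaling, which brings the median of all genes to -0.01, gave 0.59 for the mitochondrial and -0.08 for the nuclear members.

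Cytochrome oxidase subunit mt-Co3 had the smallest p among members. It was at 1594 and 1988 TPM alone and 3113 and 2897 TPM with MB1 (log2 fold change 0.75, SE 0.19, limma adjusted p = 0.715). The groups did not overlap, and the difference was 0.96 within number 1 and 0.54 within number 2. mt-Nd2, of the proton-pumping arm of complex I, was at 306 and 414 TPM alone and 761 and 588 TPM with MB1 (0.91, SE 0.29, limma adjusted p = 0.781). mt-Nd5, another pump subunit, was at 220 and 295 TPM alone and 489 and 391 TPM with MB1 (0.78, SE 0.30, limma adjusted p = 0.809).

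The other mitochondrial genes had less certain differences. mt-Nd1 was at 449 and 648 TPM alone and 840 and 729 TPM with MB1. mt-Nd4 was at 155 and 301 TPM alone and 502 and 355 TPM with MB1, a difference of 0.96 that was 0.29 with its copy added, and mt-Cytb, the haem protein of complex III, at 533 and 753 TPM alone and 1092 and 902 TPM with MB1. These 3 did not overlap between the groups. mt-Co2, which receives electrons from cytochrome c, was at 3482 and 3372 TPM alone and 4784 and 4013 TPM with MB1. mt-Atp6 was at 2049 and 2318 TPM alone and 3688 and 2572 TPM with MB1. mt-Co1 was at 2870 and 4691 TPM alone and 4865 and 5710 TPM with MB1, a separation that its copies make uncertain. mt-Nd4l, mt-Nd3, mt-Nd6 and mt-Atp8 overlapped, and each was higher in the libraries numbered 2 of both groups.

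Atp5l, subunit g of ATP synthase, had the smallest p among nuclear members. It was at 558 and 566 TPM alone and 372 and 422 TPM with MB1 (log2 fold change -0.50, SE 0.13, limma adjusted p = 0.715), and -0.44 with its 9 copies added. Atp5g3 was at 334 and 325 TPM alone and 264 and 239 TPM with MB1 (-0.39, SE 0.12). The complex I subunits Ndufb9 (227 and 203 TPM alone, 169 and 171 TPM with MB1) and Ndufb2 (119 and 121 TPM alone, 91.2 and 103 TPM with MB1) were also lower in both co-culture libraries. Ndufa1, an accessory subunit of complex I, was higher, at 142 and 153 TPM alone and 179 and 186 TPM with MB1 (0.31, SE 0.12). So was Ndufb4, at 18.6 and 25.7 TPM alone and 38.5 and 30.4 TPM with MB1, a difference that its copies make uncertain. None of these had a limma adjusted p under 0.7.

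**Figure D4:**
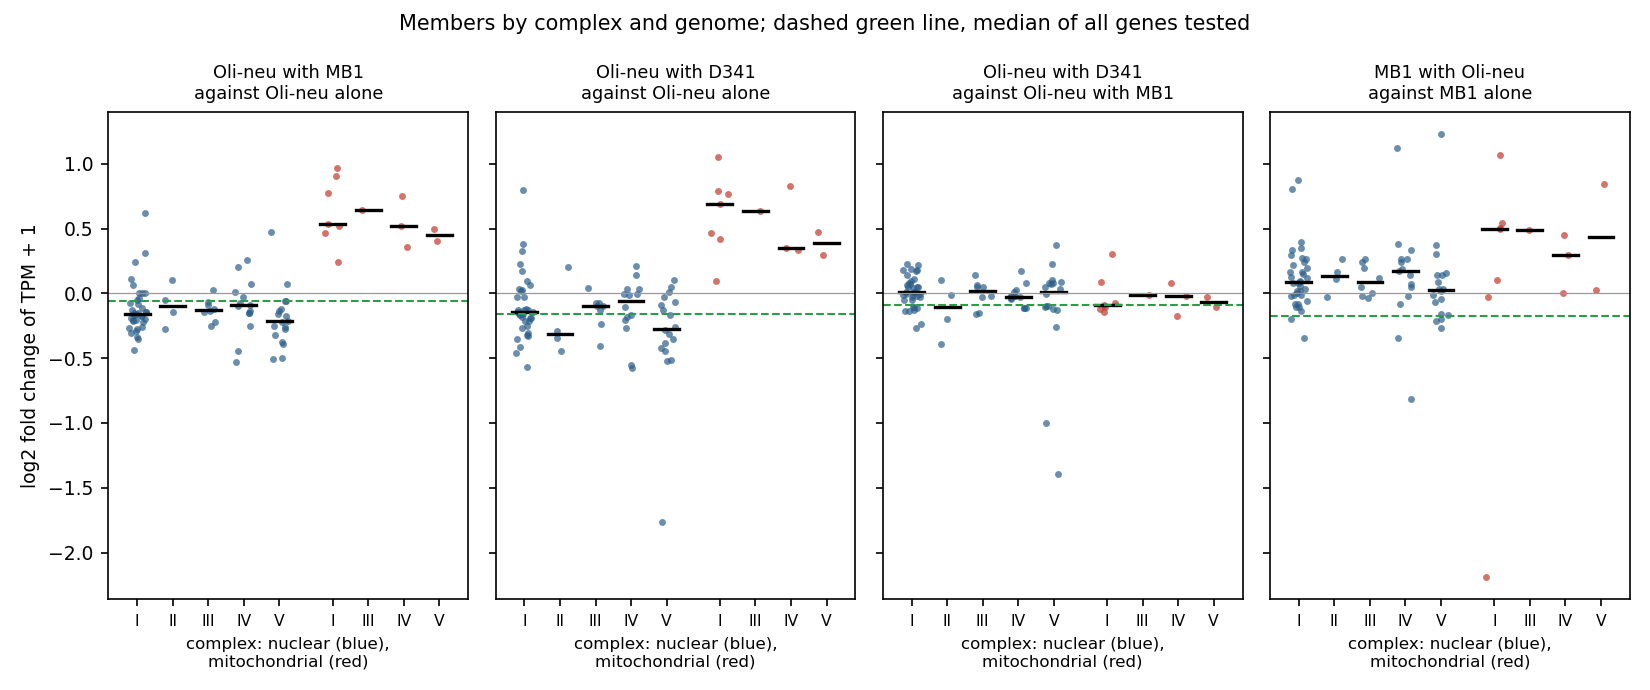
Points are the log2 fold changes of TPM + 1 for each tested member in the 4 comparisons, by complex, nuclear members in blue and mitochondrially encoded ones in red; black bars are medians and the dashed green line is the median of all genes tested. With MB1 or D341 the red medians in Oli-neu lie between 0.35 and 0.69 and the blue ones below 0.

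Oli-neu cells with D341 were compared with the same 2 libraries of Oli-neu alone, so that the 2 co-cultures share their controls and are given side by side. The mean of all 13 mitochondrial genes was again higher (median 0.47), as for 24.1% of all genes. That of 61 of 80 nuclear members was lower (median -0.14), as for 75.8% of all genes, whose median was -0.16. No gene passed the adjusted threshold (limma), and 1684 genes, 13.7%, had an unadjusted p under 0.05, with 3 mitochondrial and 13 nuclear members among them. The 3 mitochondrial and 2 of the nuclear members were higher (1.61% of all genes), and 11 nuclear members were lower (12.1%). With the replicate number as a block the counts were 0 and 2566, with 3 mitochondrial and 18 nuclear members.

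Groups did not overlap in 6 mitochondrial genes, all higher against 7.12% of genes, and in 34 nuclear members that were lower, against 44% of genes. The mitochondrial median was 1.01 within number 1, with 12 of 13 higher, and 0.11 within number 2, with 9 of 13 higher. Without Oli-neu alone replicate 1 it was 0.36, with 8 of 13 genes higher, and without its replicate 2 it was 0.99 with all 13. The ratio of the genomes differed by 0.54 on the log2 scale, by 1.00 and 0.09 within the numbers and by -0.01 without Oli-neu alone replicate 1. Without mt-Atp8 the difference was 0.63, and 0.36 without Oli-neu alone replicate 1. As the median over members it was 0.78, and 0.24 without that library. Median-ratio scaling moved the median of all genes from -0.16 to 0.00 and that of the nuclear members to 0.04, with 48 of 80 higher, so that no direction of the nuclear members holds under both scalings. The mitochondrial median was then 0.66.

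The mitochondrial gene with the smallest p was again mt-Co3, at 3507 and 2857 TPM with D341 (0.83, SE 0.19, limma adjusted p = 0.320), above both libraries of Oli-neu alone. mt-Nd4 was at 562 and 358 TPM with D341, with a difference of 1.05. Leaving out replicate 1 of Oli-neu alone gave 0.57, leaving out its replicate 2 gave 1.53, and the difference was 0.27 when its copy was added. mt-Nd2 was at 766 and 496 TPM with D341 and mt-Nd5 at 523 and 324 TPM, both above Oli-neu alone. mt-Nd1 was at 840 and 660 TPM and mt-Cytb at 1185 and 814 TPM. In all 5 the library numbered 1 was the higher of the pair. mt-Co2 was at 5615 and 3340 TPM, mt-Atp6 at 4110 and 2229 TPM, mt-Co1 at 4591 and 4745 TPM and mt-Nd4l at 850 and 1034 TPM, and these 4 overlapped with Oli-neu alone.

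Nuclear members of complex V had a median of -0.27, or -0.09 with median-ratio scaling, and 9 of 18 were lower without overlap, where 44% of all genes were. Atp5g3 was at 230 and 232 TPM with D341, against 334 and 325 TPM alone (log2 fold change -0.51, SE 0.12, limma adjusted p = 0.320). Atp5l was at 401 and 437 TPM with D341 (-0.42, SE 0.13). Uqcrc1 was at 76.6 and 78.4 TPM alone and 56.2 and 60.1 TPM with D341 (-0.41, SE 0.11). Ndufb9 was at 157 and 154 TPM and Ndufb2 at 90.1 and 89.9 TPM with D341, both below Oli-neu alone. Ndufb4 was higher, at 45.8 and 33.0 TPM, a difference that its copies make uncertain.

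The 2 co-cultures of Oli-neu were also compared with each other, to ask whether the partner matters. Respiratory chain genes differed little: the mitochondrial median was -0.07 and the nuclear one -0.01, against -0.09 for all genes, and the ratio of the genomes differed by -0.07. With D341, 3 mitochondrial and 37 nuclear members had the higher mean (31.5% of all genes) and 10 and 43 the lower (68.5%). Groups did not overlap in 4 nuclear members that were higher (6.6% of all genes), and in 10 nuclear and 1 mitochondrial that were lower (28.8%). No gene passed the adjusted threshold (limma). At an unadjusted p under 0.05 stood 630 genes, 5.13% (0.79% higher and 4.34% lower), and 0 members. With the replicate number as a block the counts were 0 and 1114, with 1 nuclear member. The smallest p belonged to Atp5g2, at 118 and 134 TPM with MB1 and 23.9 and 92.4 TPM with D341 (-1.39, SE 0.63, limma adjusted p = 0.839). Most of the gap lay within number 1 (-2.26), where Oli-neu with D341 replicate 1 was lowest, and within number 2 it was -0.53. With its copy added the difference was -0.28. Its copy Gm10175 was at 489 and 371 TPM with MB1 and 403 and 396 TPM with D341.

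Ndufa9, an accessory subunit of complex I, was at 59.97 and 59.7 TPM with MB1 and 47.6 and 53.8 TPM with D341 (-0.24, SE 0.11). Atp5s, factor B, was at 15.2 and 21.2 TPM with MB1 and 23.1 and 24.03 TPM with D341. Atp5a1 was at 276 and 229 TPM with MB1 and 193 and 228 TPM with D341, and Sdha at 302 and 284 TPM with MB1 and 180 and 277 TPM with D341. In both, Oli-neu with D341 replicate 1 was the lowest of the 4. The second identifier of Atp5o was at 9.71 and 1.72 TPM with MB1 and 2.12 and 1.33 TPM with D341, which overlap. By median-ratio scaling the mitochondrial median was 0.05 and the nuclear one 0.11, so neither sign is stable.

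MB1 cells with Oli-neu were compared with MB1 alone to look at the tumour line in the same co-culture. The mean of 55 of 81 nuclear members was higher, by a median of 0.09 (29.1% of all genes were higher), while 70.9% of the 12407 genes tested had a lower mean, with a median of -0.17. No gene passed the adjusted threshold (limma). At an unadjusted p under 0.05 stood 1944 genes, 15.7%, with 3 nuclear and 0 mitochondrial members among them, all 3 higher, where 3.02% of all genes were. With the replicate number as a block the counts were 0 and 1344, again with 3 nuclear members.

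Groups did not overlap in 24 nuclear members that were higher, against 10.9% of genes tested, and in 3 that were lower, against 41.5%. Nuclear medians were 0.09 for complex I, 0.14 for complex II, 0.09 for complex III, 0.17 for complex IV and 0.02 for complex V. The nuclear median was 0.27 within number 1 and -0.05 within number 2. Replicate differences correlated over genes with r of -0.12 between the MB1 cultures, so the MB1 numbers are not shown to be pairs. Values within a number of MB1 thus only set single libraries against each other. Without MB1 alone replicate 1 the nuclear median was -0.03, with 39 of 81 higher, and without replicate 2 it was 0.19, with 70 of 81 higher. Median-ratio scaling, which brings the median of all genes to -0.01, gave 0.28 with 74 of 81 higher.

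The mitochondrial genes of MB1 depended on which library of MB1 alone was used. With both, 11 of 13 had a higher mean in co-culture, with a median of 0.45. Within number 1 the median was -0.14 with 9 of 13 lower, and within number 2 it was 0.72 with 12 of 13 higher. Without MB1 alone replicate 2 the median was -0.26, with 12 of 13 lower, and without its replicate 1 it was 0.76, with 12 of 13 higher. The ratio of the genomes differed by 0.14 on the log2 scale, by -0.39 within number 1 and 0.66 within number 2. No direction for the mitochondrial genes of MB1 in co-culture thus holds in both numbers, or with either library of MB1 alone left out.

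The spread behind this was that of MB1 alone. mt-Nd4 was at 2058 and 427 TPM alone and 2094 and 1840 TPM with Oli-neu. mt-Atp6 was at 13349 and 3079 TPM alone and 11987 and 11073 TPM with Oli-neu, and mt-Nd2 at 1909 and 459 TPM alone and 1410 and 1327 TPM with Oli-neu. For all 3, MB1 alone replicate 1 was close to or above the co-cultures and replicate 2 was far below. mt-Cytb (3823 and 1362 TPM alone, 3379 and 3031 TPM with Oli-neu), mt-Co3 (9101 and 4243 TPM, 9183 and 7878 TPM), mt-Co2 (12152 and 6320 TPM, 11962 and 9637 TPM) and mt-Nd1 (3307 and 1470 TPM, 2469 and 1897 TPM) had the same order.

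mt-Nd5 was at 1054 and 340 TPM alone and 780 and 929 TPM with Oli-neu, mt-Nd4l at 3596 and 1917 TPM alone and 2508 and 3157 TPM with Oli-neu, and mt-Co1 at 6228 and 4159 TPM alone and 5651 and 4613 TPM with Oli-neu. The single mitochondrial gene with no overlap was mt-Nd3, at 688 and 1057 TPM alone and 1070 and 1357 TPM with Oli-neu (0.50, SE 0.27, limma adjusted p = 0.406). It was higher in co-culture within both numbers, by 0.64 and 0.36. Its copy Gm28438 held more TPM than the gene on average (1308 against 576 TPM), and with the copy added the difference was 0.14.

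**Figure D5:**
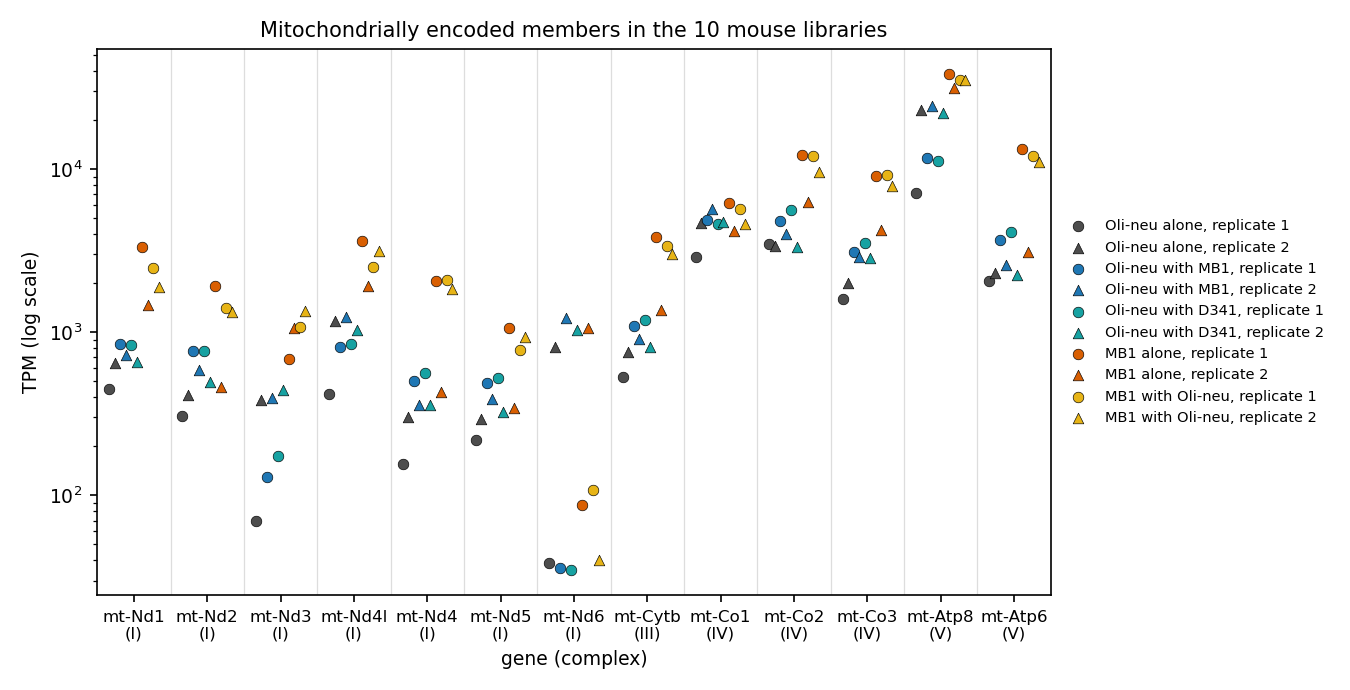
Each point is the TPM of a mitochondrially encoded gene in a library, on a log scale, with genes ordered by complex and position; colours are cultures, circles replicate 1 and triangles replicate 2. Oli-neu alone replicate 1 lies lowest of the 6 Oli-neu libraries in 11 of the 13 genes, and MB1 alone replicate 2 lies below replicate 1 except for mt-Nd3 and mt-Nd6.

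Cox6b2 had the smallest p of all members in MB1. With the values given above, its mean was 67.8 ± 8.35 TPM alone and 148 ± 2.48 TPM with Oli-neu (SD, n = 2) (log2 fold change 1.12, SE 0.16, limma adjusted p = 0.254). It was higher in both numbers, by 1.26 and 0.98, and between 1.00 and 1.24 with each library left out in turn. The ubiquitous Cox6b1 was at 1756 and 1716 TPM alone and 2149 and 2030 TPM with Oli-neu, so that Cox6b2 remained the lesser of the pair in every library.

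Other nuclear members of MB1 differed less. Atp5k, subunit e of ATP synthase, was at 447 and 439 TPM alone and 580 and 570 TPM with Oli-neu (0.38, SE 0.14, limma adjusted p = 0.318), and by 0.37 and 0.38 within the numbers. Ndufa6 was at 426 and 255 TPM alone and 594 and 562 TPM with Oli-neu (0.81, SE 0.28). Ndufa1 was at 182 and 163 TPM alone and 219 and 215 TPM with Oli-neu, and Ndufb4 at 41.7 and 19.5 TPM alone and 54.0 and 52.3 TPM with Oli-neu. The muscle isoform Cox6a2 was lower, at 3.21 and 3.14 TPM alone and 2.25 and 2.31 TPM with Oli-neu. In these 5 the groups did not overlap, and the Ndufa6 and Ndufb4 differences were larger against MB1 alone replicate 2. The copies of Ndufb4 held 444 TPM on average against 36.0 TPM for the gene, so its separation is uncertain.

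Genes that build or serve the chain were followed in 4 lists. The 47 tested assembly factors, which insert cofactors and join subunits, had a median of -0.12 in Oli-neu with MB1, -0.15 with D341 and -0.09 in MB1 with Oli-neu. The 28 genes of mitochondrial transcription, RNA handling and translation had medians of -0.08, -0.23 and -0.28 in the same comparisons, against -0.06, -0.16 and -0.17 for all genes. No gene of a list passed the adjusted threshold in a comparison (limma). At an unadjusted p under 0.05, lower and higher, stood 2 and 0 genes of mitochondrial expression with MB1, 7 and 0 with D341 and 3 and 0 in MB1, where 4.65%, 12.1% and 12.6% of all genes were lower.

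In Oli-neu the mitochondrial elongation factor Gfm1 was at 10.6 and 10.7 TPM alone, 7.86 and 8.53 TPM with MB1 and 6.74 and 6.86 TPM with D341. Tsfm, which recycles another elongation factor, was at 17.4 and 15.7 TPM alone, 11.8 and 10.7 TPM with MB1 and 10.2 and 12.1 TPM with D341. Both were lower in all 4 co-culture libraries. Fastkd2, an RNA-binding protein of mitochondrial ribosome assembly, was at 20.0 and 21.1 TPM alone, 19.8 and 16.7 TPM with MB1 and 11.03 and 11.4 TPM with D341 (log2 fold change with D341 -0.82, SE 0.12, limma adjusted p = 0.320). In MB1 it was at 24.2 and 28.8 TPM alone and 16.5 and 11.8 TPM with Oli-neu (-0.87, SE 0.22, limma adjusted p = 0.282). The initiation factor Mtif3 was at 9.51 and 8.34 TPM in Oli-neu alone, 8.67 and 8.10 TPM with MB1 and 5.38 and 4.30 TPM with D341.

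Among assembly factors, Cox15, which makes haem A for complex IV, was at 12.0 and 13.8 TPM in MB1 alone and 7.14 and 6.17 TPM with Oli-neu (-0.86, SE 0.17, limma adjusted p = 0.282). Atpaf1, a chaperone of ATP synthase, was at 14.3 and 16.5 TPM in MB1 alone and 9.61 and 9.82 TPM with Oli-neu. It was at 13.4 and 15.1 TPM in Oli-neu alone, 12.6 and 12.9 TPM with MB1 and 10.3 and 11.1 TPM with D341. The complex I factor Ndufaf3 was at 21.2 and 19.5 TPM in Oli-neu alone and 14.9 and 15.3 TPM with MB1. Nubpl, which brings iron-sulphur clusters to complex I, was low, at 2.25 and 3.61 TPM alone and 1.36 and 1.38 TPM with MB1.

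The mitochondrial DNA polymerase Polg was at 286 and 280 TPM in MB1 alone and 190 and 194 TPM with Oli-neu (-0.56, SE 0.14, limma adjusted p = 0.282), while in Oli-neu it was at 175 and 88.3 TPM alone and overlapped with both co-cultures. Of 9 biogenesis regulators tested in Oli-neu and 10 in MB1, 1 had an unadjusted p under 0.05 with D341 and 1 in MB1, in both cases Myc, where 13.7% and 15.7% of all genes did. It was at 68.0 and 56.1 TPM in Oli-neu alone and 49.98 and 39.9 TPM with D341, and at 37.5 and 30.6 TPM in MB1 alone and 23.9 and 24.7 TPM with Oli-neu. Medians of this list were 0.06 with MB1, -0.15 with D341 and -0.19 in MB1.

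The 16 tested adjoining subunits and carriers had medians of -0.17 with MB1, -0.21 with D341 and -0.05 in MB1, and 15 of 16 were lower in each Oli-neu co-culture, where 62.6% of all genes were lower with MB1 and 75.8% with D341. With median-ratio scaling the medians were -0.11 with MB1 and -0.03 with D341. Etfa, which passes electrons from fat oxidation towards ubiquinone, was at 37.3 and 35.8 TPM in Oli-neu alone, 29.1 and 28.4 TPM with MB1 and 26.5 and 26.3 TPM with D341. The adenine nucleotide carrier Slc25a5 was at 85.9 and 99.0 TPM in Oli-neu alone and 62.4 and 66.5 TPM with D341. In MB1 the ATP synthase inhibitor Atpif1 was higher in co-culture, at 314 and 289 TPM alone and 398 and 432 TPM with Oli-neu (0.46, SE 0.15, limma adjusted p = 0.299). Dhodh, which feeds electrons from pyrimidine synthesis to ubiquinone, was at 15.9 and 15.5 TPM alone and 9.69 and 10.5 TPM with Oli-neu.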

How the data were processed

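Poly(A)-selected RNA of 10 mouse libraries was sequenced with a directional kit over 75 cycles on a NextSeq500, per the labels' protocols. The deposited values are TPM per gene, made by the authors with Salmon 0.14.1 on GRCm38 as far as the submitters' processing notes name tools (FastQC 0.11.8, MultiQC 1.7 and DESeq2 1.22.2 are also named). The human D341 libraries were not analysed here. Symbols and positions came from GENCODE M21 (GRCm38), and 260 of 35288 identifiers had no symbol. Each library sums to 1000000, so depth is unknown.

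Genes with at least 1 TPM in 2 libraries of a table (12280 in Oli-neu, 12407 in MB1) entered limma 3.58.1 (R 4.3.3) on the scale log2(TPM + 1); tests had a trend, were two-sided and used Benjamini-Hochberg adjustment over all genes tested and a threshold of 0.05. A log2 fold change on this scale understates the change of low genes. The 6 Oli-neu libraries shared 1 fit, and MB1 had its own with 4 libraries. Ratios of summed TPM and differences between lines have no test. The procedure was tested on simulated data. Copies were found with blastn 2.17.0 (at least 95% identity over at least 100 bases, and 50% of a nuclear copy).

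Replicate numbers were checked for pairing. Deviations from the group means correlated over genes between the Oli-neu cultures with r of 0.59 to 0.62. Their numbers were therefore taken as pairs in the replicate block and in the values within a number. The SE and adjusted p quoted for single genes come from the main fit, which did not use the numbers as pairs. In MB1, r was -0.12, so that its numbers are not shown to be pairs. The mean replicate difference of Oli-neu also correlated with that of MB1 alone, a separate line, with r of 0.56. An r of this size therefore does not show by itself that the Oli-neu libraries were paired. Members and lists were chosen with earlier results of these data known. Named were all mitochondrial members, per complex the 2 highest and the lowest tested nuclear member, isoform pairs, per comparison the 6 nuclear members with the smallest p, and up to 4 genes of each list. Further names were picked once values were known. The alternatives covered a pseudocount of 0.1 or 5 TPM, a filter at 5 TPM or none, median-ratio scaling, rescaling over protein-coding genes or without mitochondrial genes, no trend, the replicate block, copies added and each library left out. Adding copies to the tests by sequence match, leaving out mt-Atp8 (also with a library left out) and crossed numbers were chosen after seeing the data.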

Additional observations from a re-analysis of the deposited data

Results flagged for a closer look

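Ndufa4 and Ndufb3 had opposite differences in the 2 lines of the same co-culture: in Oli-neu each co-cultured library was below each library grown alone, and in MB1 each was above. Ndufa4, which encodes a subunit of complex IV, was at 386 and 382 TPM in Oli-neu alone and 347 and 284 TPM with MB1 (log2 fold change -0.29), and at 638 and 581 TPM in MB1 alone and 892 and 717 TPM with Oli-neu (0.39), a gap of 0.68. Ndufb3, an accessory subunit of complex I, was at 96.8 and 101 TPM in Oli-neu alone and 85.2 and 92.6 TPM with MB1 (-0.15), and at 89.6 and 99.5 TPM in MB1 alone and 108 and 116 TPM with Oli-neu (0.24), a gap of 0.39. The differences between the lines were not tested. Opposite directions of either kind were found in 2.15% of 93 members and in 4.08% of 11182 genes tested in both lines. In the direction of these 2, lower in Oli-neu and higher in MB1, were 2.15% of members and 1.31% of all genes.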

How the results depend on the processing

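The number of genes past the adjusted threshold (limma) was 0 in all 4 comparisons and stayed 0 with the replicate block, which used the numbers as pairs, and changed no call. With the numbers of MB1 crossed, a pairing chosen after seeing the data because r was -0.12, it was also 0. For Oli-neu with MB1 it was 2 with median-ratio scaling, 1 with no filter, 1 with no trend, 3 with a pseudocount of 0.1 TPM, 2 over protein-coding genes, and 0 to 0 with each library left out. For Oli-neu with D341 it was 3 with no filter, 1 over protein-coding genes and 0 to 2 with a library left out. Between these co-cultures it was 6 with no filter, 1 with no trend, 1 over protein-coding genes and 0 to 3 with a library left out. In MB1 it was 5 over protein-coding genes and 1 to 112 with a library left out, the 112 without MB1 alone replicate 1. Among these 112 were 5 members, mt-Nd2, mt-Nd4, mt-Atp6 and the second identifier of Atp5o as higher and Cox7b as lower in co-culture. No member passed under another alternative. The lone library was assumed there to vary like the other groups. Without MB1 alone replicate 1, the lone control was MB1 alone replicate 2, 1 of the 4 libraries that stood apart above. Both co-culture libraries were among the other 6, so co-culture and that division cannot be told apart in this fit. The difference in the ratio of the genomes rests on 2 libraries a group: with a library left out it ranged from -0.37 to 0.64 in MB1, 0.06 to 1.16 in Oli-neu with MB1, -0.01 to 1.10 with D341 and -0.24 to 0.11 between these co-cultures. The 6 nuclear members with the smallest p in each comparison kept their direction under the alternatives run, but choice by small p favours this. Among all tested nuclear members, the direction turned with a library left out for 37 of 80 in Oli-neu with MB1. It turned for 35 of 80 with D341, 58 of 80 between these co-cultures and 46 of 81 in MB1. Of the 13 mitochondrial members, the direction turned with a library left out for 4 in Oli-neu with MB1, 6 with D341, 12 between these co-cultures and 11 in MB1. The cause of these shifts was not tested. Depth is unknown, and 2 libraries a group limit every comparison.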

Other observations

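Some copies of mitochondrial genes in nuclear DNA were far lower in MB1 than in Oli-neu. Gm13340, which matches mt-Co1 over 1545 bases at 97.6% identity, was between 511 and 932 TPM in the 6 Oli-neu libraries and between 1.597 and 7.72 TPM in the 4 MB1 libraries, while the ranges of mt-Co1 itself overlapped, as did those of its more abundant copy Gm29216 (2935 to 9274 TPM and 3036 to 10138 TPM). Gm13339, a copy of mt-Nd2, was between 30.2 and 83.7 TPM in Oli-neu and at most 0.36 TPM in MB1, and Gm4076, a copy of mt-Nd5, between 40.3 and 95.4 TPM and at most 0.14 TPM. Copies of nuclear members showed the same split for Gm6969 (Cox7a2l), at 84.3 to 138 TPM in Oli-neu and at most 1.45 TPM in MB1, while Gm12338, the copy of Cox7c, was high in both lines. These copies were singled out after their values were seen, and the tables were not tested against each other.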
